A study of Mus musculus with 6 samples.

Results

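Transcripts of 10 BCL2 family regulators of apoptosis were followed in mouse 2-cell embryos: the anti-apoptotic Bcl2, Bcl2l1, Bcl2l10 and Mcl1, the effectors Bax and Bak1, and the BH3-only genes Bcl2l11, Bid, Bbc3 and Pmaip1. The genes were taken by their symbols and are 10 of the 48967 genes for which counts were at hand. All 10 were among the 16020 genes that passed the filter on low counts, which asks for about 10 counts in at least 3 libraries, and none was set aside.

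RNA-seq compared embryos from delipidated zygotes with embryos from control zygotes, to find transcripts that respond to the removal of lipid droplets. All embryos were wt, of the strain F1 (C57Bl/10 X CBA/H), and grew in KSOM without fatty acids from 0.5 to 2.0 dpc, labelled day 2. For delipidation, zygotes were spun in cytochalasin B, spun again after a hyperosmotic sucrose solution was added, and the displaced droplets were drawn out with a pipette through a laser-made hole in the zona pellucida. The labels carry this protocol for every sample and do not say which of its steps the control zygotes went through, and the results of the study's paper place the embryos a day after delipidation. Embryos of several superovulated females were mixed before they were assigned at random, and 9 embryos per group were divided into 3 pools of 3. The 3 libraries of a group are therefore separate pools from 1 collection, and the p-values measure the spread between pools. Counts assigned to genes came to between 12164963 and 16165958 in the control and between 14683741 and 20059460 in the delipidated libraries. Values are given as CPM (counts relative to library size on the usual CPM scale, after TMM scaling). Levels of different genes are compared after division by exonic length in kb. Genes of other lists that are named for a high CPM were picked without that division, so their place is no rank of levels.

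Proteins of the BCL2 family decide whether the outer mitochondrial membrane stays intact. Effectors form pores in that membrane, anti-apoptotic members hold the effectors and the BH3-only members in check, and BH3-only members relay stress signals by binding to either. Oocytes and cleavage embryos carry several of these transcripts from maternal stores, and BCL2L10 is known for its abundance in oocytes.

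The libraries held the transcripts of a 2-cell embryo. Of 12 markers of 2-cell genome activation, all 12 were counted in 5 libraries and 11 in delipidated replicate 1, where Duxf3 had a count of 0. All 12 maternal oocyte transcripts, a list that includes Bcl2l10, were counted in every library. The maternal list summed to 1643 ± 407 CPM (SD, n = 3) in control and 1784 ± 480 CPM (SD, n = 3) in delipidated embryos, and the activation list to 287 ± 113 and 295 ± 57.9 CPM (SD, n = 3 each). Usp17lc and Zscan4a had the highest CPM of the activation list before division by length. Group means were 86.8 and 89.7 CPM for Usp17lc and 35.9 and 44.3 CPM for Zscan4a. Per length Tcstv3 lay above both, at 39.6 CPM per kb over all libraries, against 36.0 for Usp17lc and 17.6 for Zscan4a. Over the mean of all 6 libraries, 2 genes of the maternal list had the highest CPM. They were Oosp1, an oocyte-secreted protein gene, at 467 and 460 CPM, and Npm2, a histone chaperone of the egg, at 201 and 265 CPM. Per length, Npm2 lay above Bcl2l10 in the control means as well, at 201 against 179 CPM per kb. None of Usp17lc, Zscan4a, Oosp1 and Npm2 had an unadjusted p under 0.05, and the groups overlapped for each.

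None of the 10 members was called different between delipidated and control embryos. A call needed a Benjamini-Hochberg adjusted p under 0.05 and a log2 fold change beyond 1 in edgeR's quasi-likelihood test, and over all 16020 genes that test called 0 genes, or 0%. At an unadjusted p under 0.05, 184 genes were higher (1.15%) and 279 lower (1.74%) in delipidated embryos. Among the members 1 reached that level, Bak1, which was lower, and 0 did so in the higher direction. DESeq2's Wald test, run without that filter on 30850 genes, called 9 genes higher and 40 lower, none of them a member. At an unadjusted p under 0.05 it had 1.42% of genes higher and 2.93% lower, and 2 members, Bak1 and Bax. On the genes that pass the filter, a setting chosen after seeing the data, it called 3 higher and 9 lower, none a member, and at an unadjusted p under 0.05 it had 1.7% of genes higher and 2.31% lower, with Bak1 as the only member. limma-voom called 0 of 16020 genes, with 1.31% higher and 2.55% lower at an unadjusted p under 0.05, among them 2 members, Bak1 and Pmaip1. The libraries of the groups did not overlap for 611 genes that were higher (3.81%) and 809 that were lower (5.05%), and for 1 member, again Bak1. Of the members 5 had a positive fold change and 5 a negative one. Their median on the log2 scale was -0.13, beside -0.00073 over all genes tested. A share of 1 in 10 members rests on a single gene and is not a result about the family. Since each library is a pool of whole embryos, fewer cells of a type and less RNA per cell cannot be told apart.

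Per length, 3 of the 4 anti-apoptotic transcripts led the family, and the fourth, Bcl2, came last. Bcl2l10 averaged 184 ± 106 CPM per kb (SD, n = 6) and had a higher level per length than all but 1% of the genes tested. Mcl1 averaged 43.3 ± 8.28 CPM per kb (SD, n = 6) and Bcl2l1 29.9 ± 7.18 CPM per kb (SD, n = 6), with 8.04% and 11.7% of the genes tested above them. The next 3 places were close together, Bcl2l11 at 5.69 ± 1.49, Pmaip1 at 5.38 ± 3.32 and Bid at 5.19 ± 2.52 CPM per kb (SD, n = 6 each). Over all libraries Bax averaged 3.41 ± 3.43, Bak1 2.15 ± 1.84 and Bbc3 0.777 ± 0.992 CPM per kb (SD, n = 6 each). Bcl2 had 0.0928 ± 0.113 CPM per kb (SD, n = 6), with 99.5% of the genes tested above it.

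Only the steps from Bcl2l10 to Mcl1 and from Bcl2l1 to Bcl2l11 were larger than the spread of the difference within libraries, taken as its SD over the 6 libraries, and both steps went the same way in 6 of 6 libraries. Mcl1 lay above Bcl2l1 in 5 of 6 libraries, the exception being delipidated replicate 3. Bcl2l11 exceeded Pmaip1 in 3 of 6 libraries and Pmaip1 exceeded Bid in 3 of 6, so these neighbours have no settled order. The order of Bax and Bak1 differed between the groups. Bak1 was above Bax in each control library, with means of 3.50 and 1.72 CPM per kb. Bax was above Bak1 in each delipidated library, with means of 5.11 and 0.807 CPM per kb. This difference between the groups was not tested. Bid exceeded Bax in 5 of 6, Bak1 exceeded Bbc3 in 6 of 6 and Bbc3 exceeded Bcl2 in 5 of 6, with differences smaller than their spread. The study's methods describe counts per gene and do not say how a read that spans several exonic parts was counted. Counts repeat across neighbouring parts, as they would if such a read entered each. That would lift genes with many short parts. By the longest part of each gene alone, Bcl2l10 and Mcl1 kept the first 2 places and Bcl2 the last, while Bcl2l1 moved from place 3 to place 9. The longest part of Bcl2l1 held only 0.23% of its counts.

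**Figure D1:**
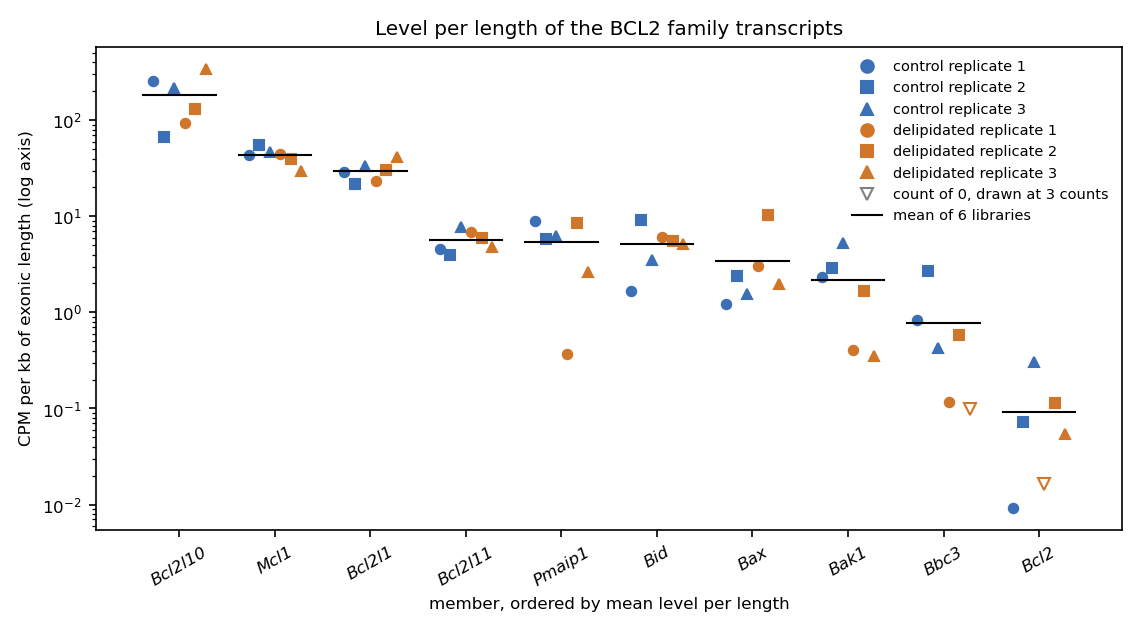
Level of the 10 members in each library, in CPM per kb of exonic length on a log axis, ordered by the mean of the 6 libraries (black lines); open triangles stand for a count of 0 and are drawn at the level that 3 counts would give. Bcl2l10 is highest, with a mean of 184 CPM per kb, and Bcl2 lowest, with a mean of 0.0928 CPM per kb.

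Summed over roles, the 4 anti-apoptotic members had 329, 144 and 295 CPM per kb in the control and 161, 202 and 414 CPM per kb in the delipidated libraries. Control replicate 2 was the lowest and delipidated replicate 3 the highest, so the groups overlapped. Bcl2l10 made up between 46.7% of this sum, in control replicate 2, and 82.7%, in delipidated replicate 3. The 4 BH3-only members together had 15.98, 21.6 and 17.9 CPM per kb in the control and 13.6, 20.6 and 12.6 CPM per kb in the delipidated libraries. The pair of effectors had 3.53, 5.32 and 6.81 CPM per kb in the control and 3.44, 12.0 and 2.34 CPM per kb in the delipidated libraries. In every library the anti-apoptotic sum exceeded the BH3-only sum, by a ratio from 6.66 in control replicate 2 to 32.9 in delipidated replicate 3, and the groups overlapped. The effector sum was highest in delipidated replicate 2, where Bax was high, and the BH3-only sum in control replicate 2. In both roles the groups overlapped.

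Among the anti-apoptotic members, Bcl2l10 encodes an oocyte-enriched relative of BCL2 (known as DIVA or BOO in mice). It had the widest range in CPM per kb, though not relative to its mean. The gene, ENSMUSG00000032191, spans bases 75347758 to 75351632 of chromosome 9, forward strand, in the build GRCm38. Its level was 312, 82.0 and 262 CPM in the control and 113, 161 and 418 CPM in the delipidated libraries. Control replicate 2 was lowest and delipidated replicate 3 highest, 5.10 times above it, and the groups overlapped throughout. The means were 219 ± 121 and 231 ± 164 CPM (SD, n = 3 each), and the log2 fold change was 0.08 (standard error 0.51.) Both of its exonic parts were counted in all libraries, and the first held an even share of the counts, from 64.0% to 68.3%. The other 11 genes of the maternal list summed to 1591, 1092 and 1590 CPM in the control and 1284, 1473 and 1903 CPM in the delipidated libraries, also lowest in control replicate 2 and highest in delipidated replicate 3. The highest of these sums was 1.74 times the lowest. The 12 activation markers summed to 368, 159 and 336 CPM in the control and 273, 252 and 361 CPM in the delipidated libraries, again lowest in control replicate 2. The part of these shifts between libraries in the Bcl2l10 values was not tested.

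Mcl1, a short-lived guard that binds BAK1 and the BH3-only proteins, was among the steadier members. It lies on the forward strand of chromosome 3 from 95658788 to 95663176 (ENSMUSG00000038612). Its level was 149, 187 and 161 CPM in the control and 154, 135 and 102 CPM in the delipidated libraries. Delipidated replicates 2 and 3 were below every control library, while delipidated replicate 1 lay between control replicates 1 and 3. The log2 fold change was -0.34 (standard error 0.23), and its 95% interval ran from -0.85 to 0.16. Among the coding stretches, the middle exon, from 95659761 to 95660008, held the most counts in 6 of 6 libraries, between 361 and 756.

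Bcl2l1, which encodes BCL-XL, an anti-apoptotic protein of the outer mitochondrial membrane, lies on the reverse strand of chromosome 2 from 152780668 to 152831728 (ENSMUSG00000007659). Its level was 134, 100 and 153 CPM in the control and 106, 139 and 190 CPM in the delipidated libraries. As for Bcl2l10, control replicate 2 was lowest and delipidated replicate 3 highest, and the groups overlapped. The log2 fold change was 0.17 (standard error 0.27), within a 95% interval from -0.42 to 0.76.

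Bcl2, the founding member and an inhibitor of apoptosis, was barely counted. Its counts were 1, 11 and 37 in the control and 0, 17 and 7 in the delipidated libraries, and a count of 0 in delipidated replicate 1 allows up to 3 counts, or 0.148 CPM. The groups overlapped, and control replicate 3 was highest. The log2 fold change of -1.20 had a standard error of 1.81. Of the counts, 84.9% fell on the longest part, from 106538178 to 106543398 on chromosome 1, which overlaps the opposite-strand gene D630008O14Rik. Counts of Bcl2 and of that gene cannot be told apart there, because the counting did not use strand. On the other 3 parts of the gene there were counts in control replicate 2 and delipidated replicate 2 alone.

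**Figure D2:**
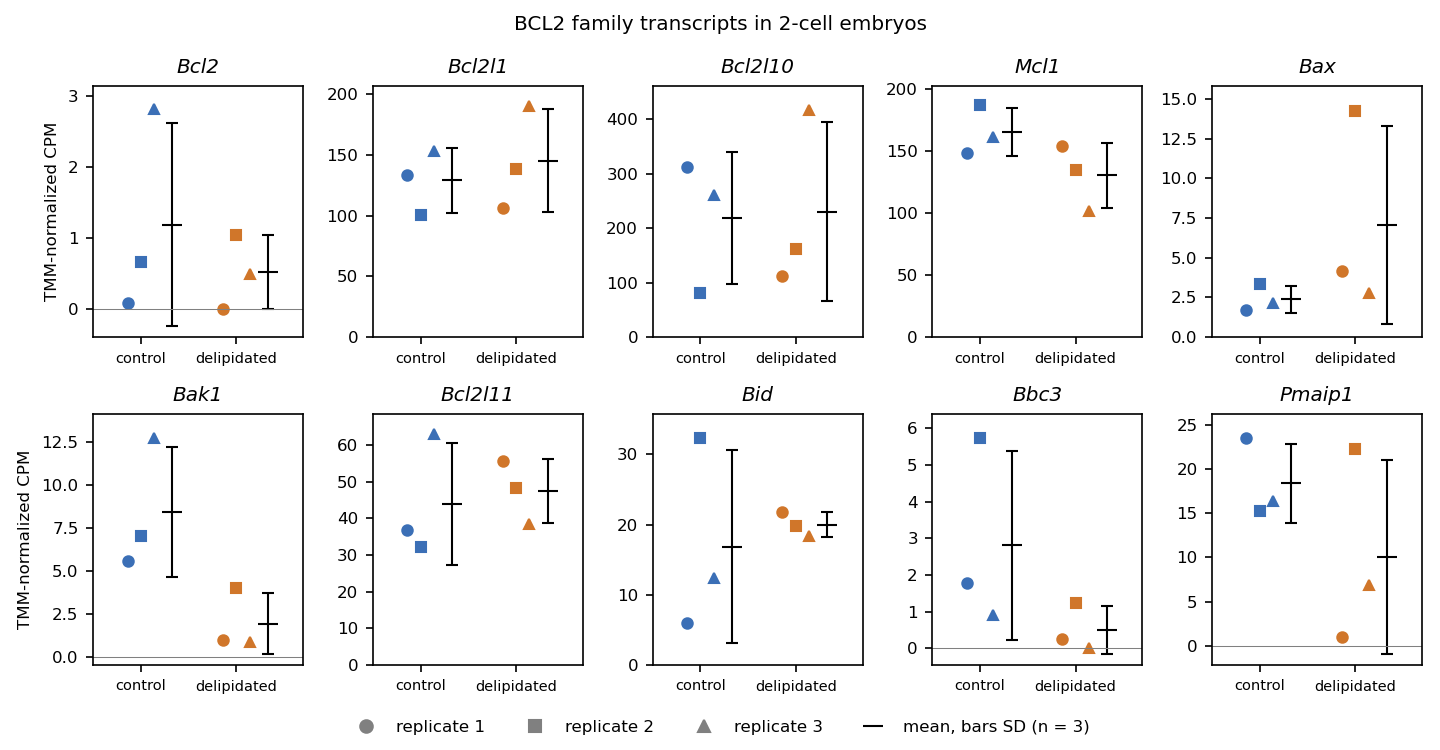
TMM-normalized CPM of the 10 members (y axis, a scale for each gene) in the 3 control and 3 delipidated libraries, with marker shapes for the replicates, the mean as a dash and the SD as bars. Bak1 alone has no overlap between the groups, with 5.57 CPM or more in control and 3.99 CPM or less in delipidated libraries.

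The effectors BAX and BAK1 build the pore of the outer mitochondrial membrane, and their transcripts were low beside Bcl2l10 and Mcl1. They were also below Bcl2l1 over all parts. By the longest part alone Bax had 0.452, Bak1 0.425 and Bcl2l1 0.404 CPM per kb. That part held only 0.23% of the Bcl2l1 counts, so it is a poor measure of the Bcl2l1 level. Of all genes tested, 50.4% had a higher level per length than Bax and 60.2% than Bak1. Bak1 lies on the reverse strand of chromosome 17 from 27019810 to 27029009 (ENSMUSG00000057789). Its counts were 66, 116 and 167 in the control and 20, 65 and 12 in the delipidated libraries, that is 5.57, 7.01 and 12.7 CPM and 0.988, 3.99 and 0.847 CPM. Every delipidated library was below every control library, for which the exact permutation p is 0.1, the lowest value 3 against 3 libraries can give. The means were 8.43 ± 3.77 and 1.94 ± 1.78 CPM (SD, n = 3 each). The log2 fold change was -2.11 (standard error 0.82), and its 95% interval ran from -3.91 to -0.31. In edgeR's quasi-likelihood test the unadjusted p was 0.0254 and the Benjamini-Hochberg adjusted p over all genes tested 1.00. Over the alternative settings that tested Bak1 the adjusted p lay between 0.397, with DESeq2's Wald test, and 1.00. By the longest exonic part alone Bak1 was not tested.

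The Bak1 counts rested on few reads. Counts repeat across neighbouring parts, such as 24 on each of 3 successive parts in control replicate 3, as they do where the same reads span several parts. No part held more than 27 counts in a library. Control replicate 2 had counts at both ends of the gene and 0 on the 6 parts between, while the counts of control replicate 3 lay mostly on those. All 20 counts of delipidated replicate 1 fell on part 15, from 27028588 to 27029009, which overlaps parts listed jointly for Ggnbp1 and Zbtb9 on the opposite strand, and 27.1% of all Bak1 counts lie on such parts. Without such parts, a setting chosen after seeing the data, the log2 fold change was -2.43 and the unadjusted p was 0.0864. The log2 fold change ran from -3.19 without delipidated replicate 2 to -1.70 without control replicate 3, and was negative with any library left out. It was smallest, -1.46 with a standard error of 2.07 and an unadjusted p of 0.494, when each gene was counted by its part with most counts alone, also chosen after seeing the data. The unadjusted p was 0.0330, 0.0436 and 0.120 without control replicates 1, 2 and 3, and 0.0582, 0.00466 and 0.0701 without delipidated replicates 1, 2 and 3.

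**Figure D3:**
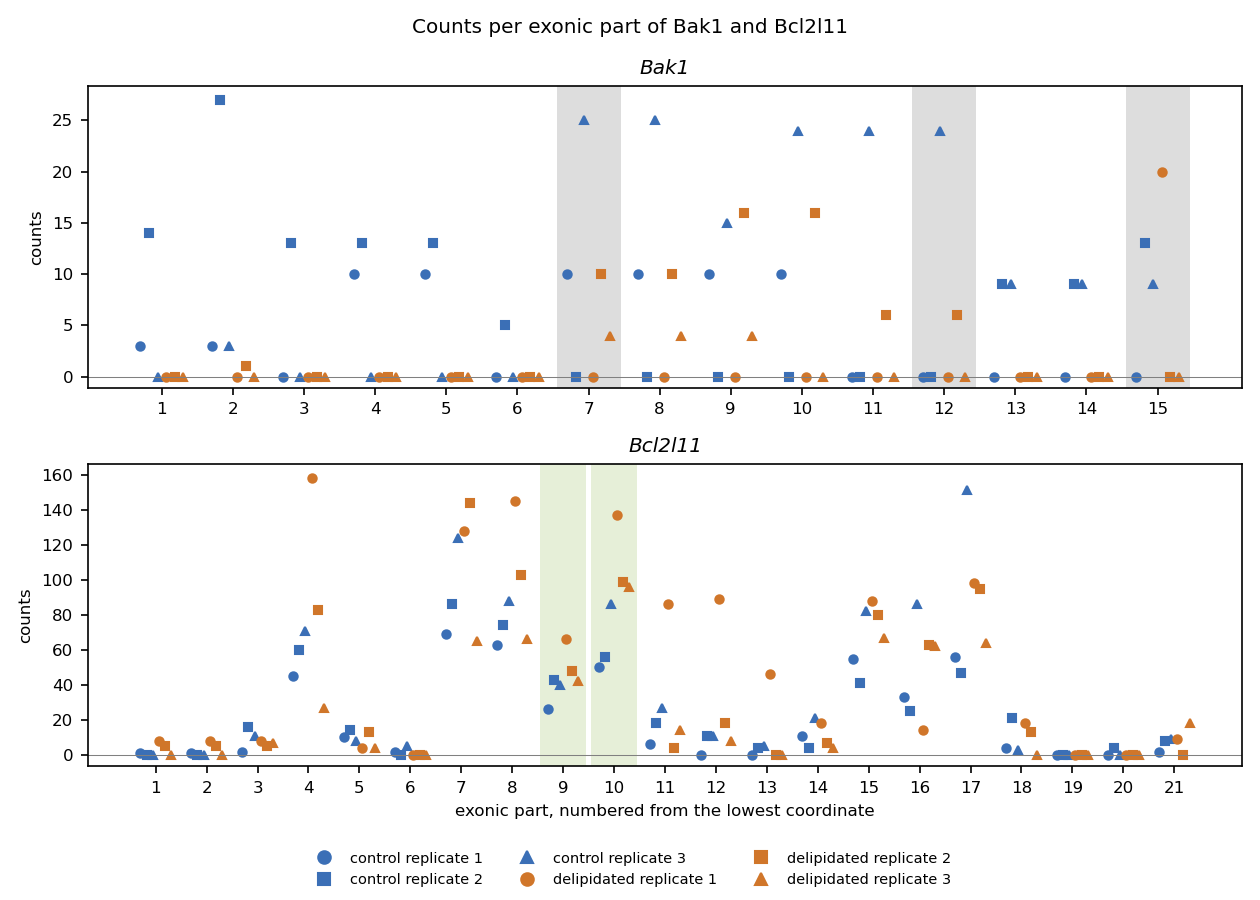
Counts (y axis) on each exonic part (x axis, numbered from the lowest coordinate) of Bak1 and Bcl2l11 in the 6 libraries. Grey bands mark the 3 Bak1 parts that overlap the opposite strand, and green bands mark parts 9 and 10 of Bcl2l11, where part 10 has more counts than part 9 in 6 of 6 libraries.

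Low members such as Bak1 were measured beside a difference in how many genes were detected. At least 1 count was found for 22855, 22437 and 20582 genes in the control and for 17091, 19408 and 20158 genes in the delipidated libraries, which do not overlap (exact two-sided permutation p = 0.1). The delipidated libraries had fewer genes although 2 of them were deeper than every control library. Bak1, Bbc3 and Bcl2, 3 of the 4 lowest members per length, had lower means in delipidated embryos, and Bax had a higher one. The part of gene detection in these values was not tested.

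Bax lies on the reverse strand of chromosome 7 from 45461697 to 45466898 (ENSMUSG00000003873). Its counts were 20, 55 and 28 in the control and 85, 232 and 39 in the delipidated libraries, or 1.69, 3.33 and 2.13 CPM and 4.197, 14.3 and 2.75 CPM. Delipidated replicate 2 stood far above the rest, and delipidated replicate 3 lay below control replicate 2, so the groups overlapped. The log2 fold change was 1.56 (standard error 0.82), and the unadjusted p of edgeR's test was 0.0819. With single libraries left out, the log2 fold change ran from 0.54 without delipidated replicate 2 (unadjusted p 0.607) to 1.95 without delipidated replicate 3 (unadjusted p 0.0390). In the latter setting Bax, and not Bak1, was the only member at an unadjusted p under 0.05. All 15 parts of Bax carry an identifier joined with 2 other genes and were given to Bax because they overlap its annotated exons and those of no other gene named in it. The 2 effectors thus differed in the sign of their fold change, and a difference between them was not tested.

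Of the BH3-only members, Bcl2l11 encodes BIM, which can activate the effectors directly and bind every anti-apoptotic member. It lies on the forward strand of chromosome 2 from 128126038 to 128162547 (ENSMUSG00000027381). Its level was 36.8, 32.2 and 62.9 CPM in the control and 55.7, 48.2 and 38.4 CPM in the delipidated libraries. Control replicate 3 was highest, control replicate 2 lowest, and the groups overlapped. The means were 44.0 ± 16.6 and 47.4 ± 8.67 CPM (SD, n = 3 each), and the log2 fold change was 0.11 (standard error 0.34.)

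The parts of Bcl2l11 separate its splice forms in part. BIM occurs as the forms EL, L and S, which share the BH3 domain, and the longer forms are held on the cytoskeleton through a stretch that S lacks. Part 9, from 128128757 to 128128924, is a coding stretch of 168 bases that, of the 3 forms, only EL keeps. In GENCODE M21, 1 of 5 coding transcripts holds it, and 2 of 8 transcripts when non-coding ones are included. Part 10, from 128128925 to 128129014, is a coding stretch of 90 bases that holds the dynein light chain binding site of EL and L. It lies in 5 of 8 transcripts when non-coding ones are included, and 3 of 5 coding transcripts hold it. Their sequence, chr2:128128757-128129014 on the forward strand of GRCm38, taken from the GENCODE M21 transcripts, is shown because its 2 stretches tell the forms apart, with part 9 in capitals and part 10 in lower case.
Bcl2l11 parts 9 and 10: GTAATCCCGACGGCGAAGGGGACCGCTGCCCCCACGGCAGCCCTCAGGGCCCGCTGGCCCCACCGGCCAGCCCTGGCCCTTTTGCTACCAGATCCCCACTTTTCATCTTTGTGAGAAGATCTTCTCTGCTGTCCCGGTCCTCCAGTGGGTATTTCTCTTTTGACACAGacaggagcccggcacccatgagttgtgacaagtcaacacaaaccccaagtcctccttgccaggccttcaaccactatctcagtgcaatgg

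Counts on part 9 were 26, 43 and 40 in the control and 66, 48 and 42 in the delipidated libraries. Counts on part 10 were 50, 56 and 86 in the control and 137, 99 and 96 in the delipidated libraries. The shorter part 10 thus had more counts than part 9 in 6 of 6 libraries. The ratio of part 10 to part 9 was 1.79 ± 0.439 in the control and 2.14 ± 0.125 in the delipidated libraries (SD, n = 3 each), and the exact permutation test gave p = 0.3. Control replicate 2 had the lowest ratio, 1.30, and delipidated replicate 3 the highest, 2.29, and the groups overlapped. The GC content was 61.3% for part 9 and 54.4% for part 10, and its part in these counts was not tested.

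Bid, whose product links death receptors to mitochondria after cleavage by caspase 8, lies on the reverse strand of chromosome 6 from 120891930 to 120916853 (ENSMUSG00000004446). Its level was 5.91, 32.3 and 12.4 CPM in the control and 21.8, 19.7 and 18.4 CPM in the delipidated libraries. The control libraries enclosed the delipidated ones, with an SD of 13.8 CPM against 1.75 CPM (n = 3 each), and the log2 fold change was 0.24 (standard error 0.56.) Part of the counts, 13.4%, lie on the part with the lowest coordinates, which overlaps Bcl2l13, another family gene on the opposite strand.

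Bbc3 encodes PUMA and Pmaip1 encodes NOXA, both known targets of p53. Bbc3 lies on the forward strand of chromosome 7 from 16308393 to 16318205 (ENSMUSG00000002083), and its counts were 21, 95 and 12 in the control and 5, 20 and 0 in the delipidated libraries. The count of 0 in delipidated replicate 3 allows up to 3 counts, or 0.212 CPM. Delipidated replicate 2 exceeded control replicate 3, so the groups overlapped, and the log2 fold change of -2.50 had a standard error of 1.55. Pmaip1 lies on the forward strand of chromosome 18 from 66458533 to 66465565 (ENSMUSG00000024521). Its level was 23.5, 15.3 and 16.3 CPM in the control and 0.988, 22.3 and 6.92 CPM in the delipidated libraries. Delipidated replicate 1 was lowest of all 6 libraries and delipidated replicate 2 second only to control replicate 1, and the log2 fold change was -0.87 (standard error 0.80.) In 5 libraries the counts of Pmaip1 were spread over its 3 parts, whereas 19 of the 20 counts in delipidated replicate 1 fell on the last part. With single libraries left out, the log2 fold change of Bbc3 ran from -4.37 without delipidated replicate 2 (unadjusted p 0.0419) to -1.43 without control replicate 2 (unadjusted p 0.500). That of Pmaip1 ran from -2.22 without delipidated replicate 2 (unadjusted p 0.0190) to -0.33 without delipidated replicate 1 (unadjusted p 0.573). The Benjamini-Hochberg adjusted p of edgeR's quasi-likelihood test was 1.00 in each of these.

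Across the pathway around the members, 73 other genes were listed, 65 were tested and 0 were called by edgeR. The groups did not overlap for 5 that were higher (7.69%) and 6 that were lower (9.23%) in delipidated embryos, beside 3.81% and 5.05% of all genes tested. Of 13 other BCL2 family genes 8 were tested, 4 with a positive and 4 with a negative fold change, and 3, the Bcl2a1 copies, had a count of 0 in all 6 libraries. Bcl2l13, a mitophagy receptor, had 143 ± 53.0 and 141 ± 24.8 CPM (SD, n = 3 each), and 46.6% of its counts share their place with a gene of the opposite strand. Bcl2l14 had 27.8 ± 1.47 and 39.5 ± 12.9 CPM (SD, n = 3 each), higher without overlap between the groups (exact permutation p = 0.1). Bcl2l12 had 10.8 and 4.30 CPM, lower without overlap, with a log2 fold change of -1.33 (standard error 0.72) and an unadjusted p of 0.0899. Bcl2l15 was also lower without overlap, with 13, 22 and 16 counts in the control and 0, 9 and 1 in the delipidated libraries, where the count of 0 allows 0.148 CPM. Bcl2l15 passed the filter on low counts through the control libraries alone. Its fold change would be set in part by that filter and is not given. It is nevertheless 1 of the 6 genes that were lower without overlap, and is among the 8 tested. The medians of the tested log2 fold changes were 0.023 for these genes, -0.037 for 10 tested genes of the apoptosome and the caspases, 0.071 for 9 inhibitor of apoptosis genes and their antagonists, and 0.00039 for 5 nuclease and nuclear effector genes. They were 0.20 for 8 outer membrane partners, 0.0045 for 15 genes of MCL1 and BH3-only protein turnover, and 0.11 for 10 transcription factors of BH3-only genes.

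Of the 65 pathway genes tested, 1 was higher and 1 lower at an unadjusted p under 0.05, or 1.54% each, beside 1.15% and 1.74% of all genes tested. Both are outer membrane partners. Mtch2, which encodes a receptor of truncated BID and an insertase of the outer membrane, had 17.9, 18.5 and 7.37 CPM in the control and 45.8, 43.4 and 32.8 CPM in the delipidated libraries. All delipidated libraries exceeded all control libraries, and the log2 fold change was 1.48 (standard error 0.42.) Vdac1, a channel of the outer membrane, had 119, 117 and 142 CPM in the control and 80.3, 94.4 and 86.7 CPM in the delipidated libraries. All delipidated libraries were below all control libraries, and the log2 fold change was -0.53 (standard error 0.22.) The unadjusted p was 0.00466 for Mtch2 and 0.0368 for Vdac1, and the Benjamini-Hochberg adjusted p over all genes tested was 1.00 for both in edgeR's quasi-likelihood test. Tomm20, a receptor for protein import and the other gene of the list with a high CPM, had 96.6 ± 15.4 and 103 ± 42.2 CPM (SD, n = 3 each).

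Of the genes with a high CPM in the other pathway lists, those given here overlapped between the groups, except for Birc6. Apaf1, the scaffold of the apoptosome, had group means of 86.3 and 73.5 CPM. Birc6, a giant inhibitor of apoptosis, had 504 ± 108 and 374 ± 29.6 CPM (SD, n = 3 each), without overlap between the groups (exact two-sided permutation p = 0.1). Its lowest control and highest delipidated library were nearly level, at 400.1 and 399 CPM. Birc3 had 354 and 307 CPM, Parp1, a substrate of caspases, 152 and 155 CPM, and Acin1, a factor of chromatin condensation, 110 and 116 CPM. Huwe1, a ubiquitin ligase of MCL1, had 1077 and 1115 CPM, and Usp9x, its deubiquitinase, 1430 and 1287 CPM. Of the factors known to drive BH3-only genes, Foxo3 had 241 and 235 CPM and E2f1 160 and 175 CPM. All counts of Parp1 and Huwe1 come from identifiers joined with other genes.

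Markers of other cell types were counted as well, since members such as Bax and Bak1 are expressed in most somatic cells. The 7 stromal markers summed to 18.3, 18.7 and 28.9 CPM in the control and 1.93, 3.50 and 4.09 CPM in the delipidated libraries, without overlap (exact two-sided permutation p = 0.1). Of these markers 5 were counted in each control library, and 1, 1 and 3 in the delipidated libraries. The most abundant was Vim, an intermediate filament gene, with 152, 145 and 300 counts in the control and 0 in each delipidated library, and its adjusted p was 0.0721 in edgeR's quasi-likelihood test. On the part of Vim with most counts, where a read counts once, it was at least 12.0-fold lower if each delipidated library is allowed 3 counts, and at least 6.32-fold lower without control replicate 3. Col1a1, a collagen gene, had 11, 26 and 42 counts in the control against 0 in the 3 delipidated libraries. By the same rule it was at least 2.75-fold lower, and at least 1.40-fold without control replicate 3. Of the 4 stromal markers tested, Vim and Col1a1 passed the filter on low counts through the control libraries alone. A median fold change over these 4 markers would be set in part by that filter and is not given. Pdgfra, the next by CPM after Vim, had group means of 3.05 and 1.90 CPM. All its counts come from an identifier joined with other genes. Not all stromal markers were lower in each delipidated library. Dcn was counted in delipidated replicate 3 alone, with 27 counts, and Col1a2 had 1.91 CPM there, above control replicates 1 and 3 at 1.18 and 1.14 CPM. Their part in the Bak1 values was not tested.

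Cumulus and granulosa markers summed to 6.16, 10.2 and 113 CPM in the control and 1.38, 9.77 and 12.2 CPM in the delipidated libraries. Control replicate 3 stood apart through Cyp11a1 and Hsd3b1, genes of steroid synthesis, with 653 and 607 counts there and at most 5 in any other library. All counts of Cyp11a1 come from an identifier joined with other genes. The study removed cumulus cells with hyaluronidase before culture. Of the other markers of the list, Foxl2 and Ptx3 had a count of 0 in all 6 libraries, whereas Tnfaip6 was counted in 6 (9 to 110 counts), Cyp19a1 in 5 and Star in 4. Control replicate 3 was also the library with the highest Bak1, Bcl2 and Bcl2l11 levels. The other members were highest in other libraries, and Bbc3 had its lowest control level there, 0.912 CPM. Without control replicate 3 the log2 fold change moved from -2.11 to -1.70 for Bak1 and from 0.11 to 0.46 for Bcl2l11. That of Bcl2 changed sign, from -1.20 to 0.42. The part of cumulus and granulosa transcripts in the levels of the members was not tested. The 7 leukocyte markers summed to 14.01, 13.4 and 8.36 CPM in the control and 3.31, 2.58 and 10.9 CPM in the delipidated libraries, with Csf1r at 3.30 and 2.00 CPM, 95.6% of it on parts that overlap the opposite strand, and Itgam at 2.51 and 1.67 CPM. The 7 oviduct epithelium markers summed to 287 ± 90.9 and 241 ± 53.0 CPM (SD, n = 3 each), nearly all of it from Epcam and Cdh1, adhesion genes that embryos also express. Epcam had group means of 138 and 152 CPM, while Cdh1 had 125, 140 and 133 CPM in the control and 70.3, 88.6 and 73.8 CPM in the delipidated libraries, without overlap. Its log2 fold change was -0.78 with an unadjusted p of 0.00532 and an adjusted p of 1.00 in edgeR's quasi-likelihood test. Sperm transcripts summed to at most 4.18 CPM in any library, with Prm2 at 1.98 and 0.461 CPM, Tnp1 counted in delipidated replicate 3 alone, and Tnp2 at 0 in all 6.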

How the data were processed

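RNA was measured in 3 control and 3 delipidated pools of 3 embryos. The authors trimmed reads with Trimmomatic 0.36, aligned them with STAR 2.5.2b and deposited raw counts of unique reads within exons from featureCounts. According to the submitters' processing notes the build was mm10. The counts are given for 425461 exonic parts, and were summed per gene here. Parts under joined identifiers, 33309 in all, went to a gene where they overlapped the GENCODE M21 exons of that gene alone (27968 parts), and the others were left out, between 2.49% and 2.57% of a library. A symbol was found in GENCODE M21 for 48762 of 48967 gene identifiers.

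The kit was strand-specific, but where both strands hold a part with the same coordinates, the smaller count divided by the larger was 1.0 in the median of 11 pairs, so overlapping genes of opposite strands share counts. Reads spanning several parts may enter each of them, in which case the apparent precision is too high. Floors of 3 counts and intervals cover counting error or spread between pools only.

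The comparison used edgeR 4.0.16 under R 4.3.3 (filterByExpr, minimum count 10, minimum total 15, TMM, quasi-likelihood test, no covariates), with Benjamini-Hochberg adjustment over all genes tested. Alternatives were DESeq2 1.42.0 (without and with that filter), limma 3.58.1 and other settings given under the dependence on processing. The code was tested on simulated counts with known changes. The genes named are the 10 members and genes chosen from each other list. Chosen were those past the threshold or at an unadjusted p under 0.05, and the 2 with the highest mean CPM. Not all of these are given. Duxf3, Tcstv3, the Bcl2a1 copies, Bcl2l12, Bcl2l15, Foxl2, Ptx3, Tnp2, Tnfaip6, Cyp19a1, Star, Dcn and Col1a2 were added once their values had been seen. The members and lists were chosen with earlier results of these data known.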

Additional observations from a re-analysis of the deposited data

How the results depend on the processing

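With counts per part, 3 pools a group and low counts for Bax, Bak1, Bbc3 and Bcl2, folds of these members are known within wide intervals. Leaving out parts that overlap the opposite strand, taking the part with most counts alone, and DESeq2's test on the filtered genes were chosen after seeing the data. Unless the setting itself shows it (fewer genes, parts or libraries), what made a value change was not tested.

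No member was called in any of 20 alternatives. The count of 0 genes called became 49 with DESeq2's Wald test run without a filter on low counts, 12 with that test on the filtered genes and 30 in edgeR without the filter, and was 0 in the other settings. The count of 1 member at an unadjusted p under 0.05 became 2 with DESeq2's Wald test without the filter (Bak1 and Bax) and 2 with limma-voom (Bak1 and Pmaip1). With the longest exonic part alone it was 0, but Bak1 was not among the 5 members tested there. It became 0 without parts that overlap the opposite strand and 0 with the part with most counts alone. With a library left out it ranged from 0 to 3, the latter without delipidated replicate 2, where 0.890% of all genes were higher and 2.92% lower at such a p. Over these settings the shares ranged from 0.890% to 1.7% and from 1.26% to 3.92%. Of 177 member fold changes under the alternatives, 167 kept their direction and 10 reversed it. With the longest part alone the log2 fold change was -0.047 for Bcl2l10 and -0.34 for Bcl2l11, and with the part with most counts alone it was -0.10 for Bcl2l11. Leaving out single libraries, the log2 fold change ranged from -1.74 to 0.42 for Bcl2, from -0.077 to 0.35 for Bcl2l1, from -0.67 to 0.45 for Bcl2l10, from -0.070 to 0.46 for Bcl2l11 and from -0.16 to 1.13 for Bid. It ranged from -0.48 to -0.20 for Mcl1, from 0.54 to 1.95 for Bax, from -3.19 to -1.70 for Bak1, from -4.37 to -1.43 for Bbc3 and from -2.22 to -0.33 for Pmaip1, whose signs changed in no setting that tested them.

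The order of levels per length kept 6 of 10 places by the longest part. With the replicate number as a block edgeR called 0 genes, beside 154 higher and 252 lower at an unadjusted p under 0.05, and 1 member, Bak1, had such a p (log2 fold change -2.38). Deviations of libraries with the same number correlated at -0.084, 0.070 and 0.043, not each best with its own number. These values give no sign that the numbers pair the samples. With 3 libraries a group they cannot exclude it. Without joined parts Bax had no value, and a mean count of at least 50 left 8 members.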

Other observations

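In Bcl2l1, part 7, from 152828536 to 152829426 on chromosome 2, is the longest of 21 parts and lies in exons of 2 of 9 annotated transcripts. Its counts were 14, 0 and 2 in the control libraries, against 0, 10 and 3 in the delipidated libraries. The adjoining coding part 8, of 102 bases, held 205, 127 and 176 in the control libraries, against 193, 216 and 248 in the delipidated libraries. The place of Bcl2l1 by its longest part is thus taken on a stretch that no coding sequence covers in full.

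In Bcl2l11, parts 11, 12 and 13 adjoin the end of part 10. They had 86, 89 and 46 counts in delipidated replicate 1, and between 0 and 27 counts in each of the other libraries. Delipidated replicate 1 was also the library with the fewest genes detected, 17091, and with the deepest total, 20059460. It had 14 counts on part 16, which holds 96 coding bases, where the other libraries had between 25 and 86. The cause of this distribution was not tested.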
